A study of Homo sapiens with 4 samples.

Results

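The genes described here encode the high-mobility group (HMG) chromatin proteins: HMGA1 and HMGA2, HMGB1, HMGB2 and HMGB3, and HMGN1, HMGN2, HMGN3 and HMGN4. They were taken by name, 9 of the 16174 genes in the deposited table. Expression was measured by nanopore long-read sequencing of amplified cDNA from H9, a widely used human embryonic stem cell line kept in the primed state. Cells of both arms carried dCas9-KRAB under doxycycline control. This protein cannot cut DNA but represses the promoter to which a guide RNA brings it (CRISPR interference). One arm also carried 4 pooled guides against the long non-coding RNA gene SNHG26, and the other non-targeting control guides. Both arms received doxycycline, for 2 or 3 days, and each arm and day has 1 library. The constructs were inserted with a transposase and cells were selected with puromycin, so each arm is a transfected pool. Each mean ± SD over an arm therefore has n = 2 and includes any effect of the day. The labels do not say whether the libraries came from separate cultures, so p-values measure only the spread between these libraries.

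HMG proteins are small, abundant, non-histone proteins that bind chromatin without forming stable complexes there. HMGA proteins insert short AT-hook motifs into the minor groove of AT-rich DNA. HMGB proteins bend DNA with HMG boxes and carry an acidic tail. HMGN proteins bind the nucleosome core itself and compete with linker histone H1. HMGA2 is a known target of the let-7 microRNAs, and HMGB2 is known to follow the cell cycle.

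The coding stretches below show what sets the families apart and how alike their members are, which bears on whether long reads of one gene can be told from those of another. They come from GENCODE release 29 transcripts (build GRCh38), 5′ to 3′ on the coding strand. The first set is the nucleosomal binding domain of the HMGN genes, with the 24 bases that encode its conserved core in capitals. HMGN1 lies on the minus strand at chr21:39348322-39348568, HMGN2 on the plus strand at chr1:26473504-26474102, HMGN3 on the minus strand at chr6:79203613-79214995, and HMGN4 on the plus strand at chr6:26545243-26545314.
HMGN1: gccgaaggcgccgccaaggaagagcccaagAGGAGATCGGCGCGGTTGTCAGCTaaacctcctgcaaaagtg
HMGN2: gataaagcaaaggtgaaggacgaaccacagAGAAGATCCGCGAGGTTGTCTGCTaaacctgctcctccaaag
HMGN3: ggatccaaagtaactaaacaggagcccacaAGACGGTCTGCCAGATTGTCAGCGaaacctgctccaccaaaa
HMGN4: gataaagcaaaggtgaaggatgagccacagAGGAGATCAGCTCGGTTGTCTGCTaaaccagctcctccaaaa

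Over these 72 bases HMGN4 differed from HMGN2 at 8 positions, HMGN1 at 25 and HMGN3 at 30. In HMGN1, HMGN2 and HMGN3 the stretch runs from exon 2 to exon 4. In HMGN4, a retrocopy of HMGN2, it lies within exon 2 alone. Over the whole coding sequence, HMGN2 and HMGN4 were identical at 236 of 273 aligned bases (86.4%), the highest share among the pairs of HMGN1 to HMGN4. The lowest was 67.5% for HMGN1 and HMGN3.

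The second set holds the 3 AT-hooks of HMGA1, with the 12 bases that encode each core in capitals. They lie on the plus strand of chromosome 6, at chr6:34240844-34240879 (exon 3), chr6:34242736-34242771 (exon 4) and chr6:34243486-34244833 (across exons 5 and 6).
AT-hook 1: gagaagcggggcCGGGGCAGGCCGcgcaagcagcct
AT-hook 2: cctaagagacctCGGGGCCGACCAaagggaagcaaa
AT-hook 3: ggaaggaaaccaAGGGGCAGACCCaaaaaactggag

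The third set is the end of the HMGB1 and HMGB3 coding sequences, the last 90 bases before the stop codon, with codons for acidic residues in capitals. HMGB1 is on the minus strand at chr13:30461360-30461449 and HMGB3 on the plus strand at chrX:150987822-150987911, both in exon 5.
HMGB1: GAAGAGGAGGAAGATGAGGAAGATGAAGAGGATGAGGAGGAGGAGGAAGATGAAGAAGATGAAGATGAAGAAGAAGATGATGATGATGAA
HMGB3: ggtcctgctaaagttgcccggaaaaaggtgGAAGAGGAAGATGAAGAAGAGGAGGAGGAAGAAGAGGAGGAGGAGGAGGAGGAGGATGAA

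All 30 of the last 30 codons of HMGB1 encode acidic residues, against 20 of 30 in HMGB3. The 2 coding sequences were identical at 447 of 598 aligned bases (74.7%).

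The values are TPM, in which reads are first set against a length and then rescaled so that libraries share one total. For many genes with few reads, the listed values are whole multiples of 1 read over the genomic span listed for the gene, so TPM here is a level per genomic span, introns included. A gene spanning 10 kb gained 0.653 to 0.803 TPM from each read, and between 20.8% and 21.4% of the genes with a value in a library came out as whole reads on their listed span. With every read placed on the full span, the listed genes held 947338 to 1220265 reads per library. This is an upper bound only where no transcript is longer than the listed span. Reads outside the listed genes are not included. SNHG26 was listed at 0 and 0.933 TPM with its own guides and at 2.98 and 4.03 TPM with control guides on days 2 and 3 (limma adjusted p 0.935, unadjusted 0.0417). On its median annotated transcript span these are an estimated 0, 0.72, 1.87 and 3.03 reads. Placed on the full listed span they are 0, 8.56, 22.2 and 35.9 reads. The size of the repression is therefore uncertain. All TPM here are bulk values, in which fewer cells of a type and less RNA per cell cannot be told apart. Summed over 12 pluripotency markers, of which 11 are in the table, TPM ran from 1734 to 1951 (POU5F1 alone from 1050 to 1212), against 0 to 1.98 for the mesendoderm list and 0 to 1.29 for the amnion and trophectoderm list. Of these last lists, only 3 of 7 and 2 of 6 genes are in the table, and 0 were tested. Of the neuroectoderm list, NES alone was tested (17.1 to 24.5 TPM). EOMES was listed at 0 in every library. The fibroblast list summed to 65.1 to 96.3 TPM, most of it THY1 (54.4 to 84.4 TPM), which pluripotent stem cells also express.

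Averaged over the 4 libraries, 8 of the 9 HMG genes reached 1 TPM, the level required for testing, and HMGA2 did not. Together the 9 genes took from 0.196% to 0.214% of the listed TPM per library. By mean TPM, HMGB2 (606.6) came first, then HMGB3 (297.1), HMGN1 (292.7), HMGA1 (272.0) and HMGB1 (263.9), then HMGN2 (136.2), HMGN3 (47.0), HMGN4 (34.3) and HMGA2 (0.388). HMGB2 was above every other member in each library. HMGB3, HMGN1, HMGA1 and HMGB1 had overlapping ranges and did not keep their order in each library, so those neighbours did not differ beyond their spread. The steps from HMGB1 to HMGN2 and from HMGN2 to HMGN3 held in 4 of 4 libraries without overlap. HMGN3 was above HMGN4 in each library, but their ranges over libraries overlapped.

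**Figure D1:**
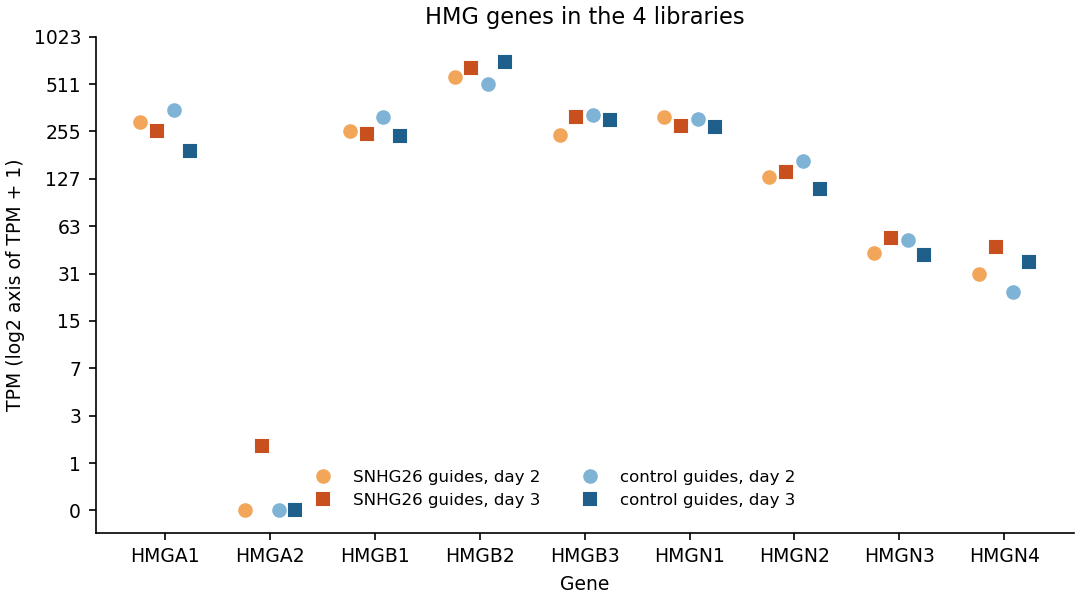
TPM of each HMG gene (vertical axis, a log2 axis of TPM + 1) in each of the 4 libraries, by guide arm (colour) and day (circle for day 2, square for day 3). HMGB2 lies between 511.3 and 702.7 TPM, above the other 8 genes, and HMGA2 has a value in 1 library.

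That order belongs to a level per genomic span. HMGB2 has a short listed span of 3057 bases and HMGN3 a long one of 33445. With the median transcript span of GENCODE, HMGA1 had the most reads, an estimated mean of 353.5 per library, followed by HMGN1 (248.6), HMGB2 (232.0), HMGN3 (221.0), HMGB3 (189.6), HMGB1 (161.9) and HMGN2 (54.4). For HMGN4 the median span gives 23.0, but its values in 3 libraries are whole reads on the listed span, on which the mean is 42.2 reads per library. HMGN3, at less than every HMGB gene in TPM, thus came out above HMGB3 in estimated reads on the median span. On the listed spans HMGB3 had a mean of 429.7 reads, above HMGA1 (353.55) and HMGN3 (221.0), so this order depends on the span chosen. The reads behind HMGB1 are the least certain, because its annotated transcripts run from 919 to 158851 bases in span. On the full listed span its values allow a mean of at most 5934 reads per library.

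**Figure D2:**
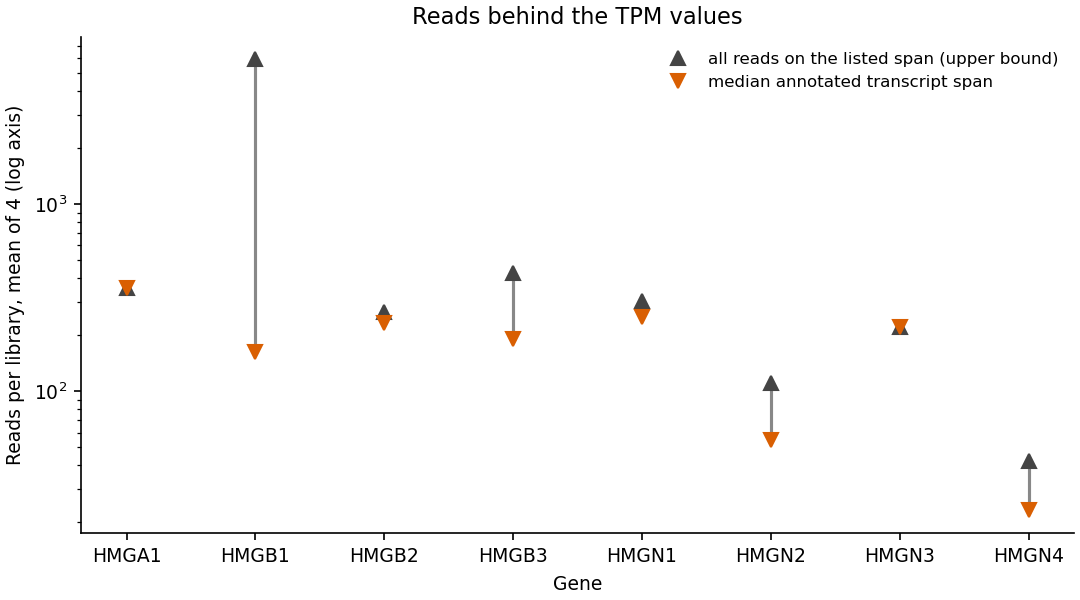
Estimated reads per library (mean of 4, log axis) behind the TPM of the 8 HMG genes above 1 TPM. Upward triangles place all reads on the listed gene span and downward triangles use the median annotated transcript span. The pair is nearly the same for HMGA1 and HMGN3 and far apart for HMGB1, at 5934 and 161.9.

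HMGA1 (chr6:34236873-34246231, plus strand) encodes the AT-hook protein shown above, a marker of proliferating and undifferentiated cells. Its values were 292.5 and 255.7 TPM on days 2 and 3 with the SNHG26 guides, and 349.1 and 190.5 TPM with control guides. Both control libraries lay outside the range of the SNHG26 arm, one above and one below, so the arms overlapped. Both day 3 libraries were below both day 2 libraries. The SNHG26 arm averaged 274.1 ± 26.0 TPM (SD, n = 2) and the control arm 269.8 ± 112.1 TPM (SD, n = 2). On the log2(TPM + 1) scale, used for the differences and tests that follow, the guide arms differed by 0.08 (SE 0.34, limma adjusted p 0.998) and day 3 from day 2 by -0.53 (SE 0.22, limma adjusted p 0.760, unadjusted 0.0723).

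HMGA2 (chr12:65824460-65966291, plus strand), the fetal HMGA gene, was listed at 0 TPM in 3 libraries and at 1.55 TPM in the day 3 library with the SNHG26 guides. That value is what 1 read gives over 4203 bases, the span of a GENCODE transcript annotated with a retained intron (chr12:65824811-65829013). On that span a count of 0 in the other libraries allows up to 4.79, 5.20 and 5.73 TPM, counting error only, so a difference from the single read was not detectable at this depth. HMGA2 lay below the filter and was not tested. Its antisense gene HMGA2-AS1, which overlaps it by 30828 bases, was listed at 0 in all 4 libraries.

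HMGB1 (chr13:30456704-30617597, minus strand), the most widely expressed HMGB protein and also known as an extracellular danger signal, stood at 257.1 and 245.3 TPM with the SNHG26 guides on days 2 and 3. The control libraries had 313.8 and 239.4 TPM. The day 2 control library was the highest and the other 3 lay between 239.4 and 257.1 TPM. Day 3 was below day 2 in both arms, by -0.07 with the SNHG26 guides and by -0.39 with control guides (mean -0.23, SE 0.16, limma adjusted p 0.760). The arms overlapped, with a difference of -0.13 (SE 0.20, limma adjusted p 0.985).

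HMGB2 (chr4:173331376-173334432, minus strand), a DNA-bending protein of dividing cells, was listed at 569.6 and 642.7 TPM with the SNHG26 guides and at 511.3 and 702.7 TPM with control guides. Both day 3 libraries were above both day 2 libraries, while the control libraries lay on either side of the SNHG26 arm. The days averaged 540.4 ± 41.2 (SD, n = 2) and 672.7 ± 42.4 (SD, n = 2) TPM, a difference of 0.32 (SE 0.13, limma adjusted p 0.760, unadjusted 0.0724). Between the arms the difference was 0.01 (SE 0.21, limma adjusted p 0.998).

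HMGB3 (chrX:150980509-150990771, plus strand), the HMGB gene best known from embryonic and stem cells, had 242.4 and 317.7 TPM with the SNHG26 guides and 326.2 and 302.2 TPM with control guides. The day 2 library with the SNHG26 guides was the lowest, and the other 3 lay between 302.2 and 326.2 TPM. Neither the arms nor the days were separated. Between the arms the difference was -0.18 (SE 0.20, limma adjusted p 0.956), with -0.43 on day 2 and 0.07 on day 3.

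HMGN1 (chr21:39342315-39349647, minus strand), a nucleosome-binding protein linked to open chromatin, varied least, with a coefficient of variation of 7.25% over the 4 libraries. It was listed at 313.2 and 277.2 TPM with the SNHG26 guides and at 308.5 and 271.7 TPM with control guides. The 2 libraries of each day agreed closely, and both day 3 libraries were below both day 2 libraries. Day 3 differed from day 2 by -0.18 in either arm (SE of the mean difference 0.13, limma adjusted p 0.760), and the arms differed by 0.03 (SE 0.17, limma adjusted p 0.998).

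HMGN2 (chr1:26472440-26478209, plus strand), the close relative of HMGN1, had 130.0 and 140.0 TPM with the SNHG26 guides, both within the range of the control libraries at 165.4 and 109.3 TPM. Its guide difference was -0.34 on day 2 and 0.35 on day 3, which gave a mean of 0.00495 (SE 0.27, limma adjusted p 0.998). HMGN3 (chr6:79201245-79234689, minus strand) followed the same order in sign, with 42.5 and 52.9 TPM against 51.6 and 40.8 TPM, differences of -0.27 and 0.37 and a mean of 0.05 (SE 0.27, limma adjusted p 0.998). For both genes neither the arms nor the days were separated.

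HMGN4 (chr6:26538366-26546933, plus strand), the retrocopy of HMGN2, was listed at 30.6 and 46.2 TPM with the SNHG26 guides and at 23.4 and 36.8 TPM with control guides. It was higher on day 3 in both arms, by 0.58 and 0.63, and above its control on either day, by 0.37 and 0.32, yet the arms overlapped. In 3 libraries the values equal whole reads on the listed span. There were 36 reads in the day 2 library with the SNHG26 guides (95% exact Poisson interval 25.2 to 49.8, counting error only). The control libraries had 25 reads on day 2 (16.2 to 36.9) and 47 on day 3 (34.5 to 62.5). The day 3 library with the SNHG26 guides came out at 60.7 reads, which is not whole. The difference between days was 0.60 (SE 0.26, limma adjusted p 0.760, unadjusted 0.0826) and between arms 0.35 (SE 0.38, limma adjusted p 0.953).

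In the comparison of guide arms, 0 of the 8 HMG genes tested had a limma adjusted p under 0.05, and 0 an unadjusted p under 0.05. Of all 8274 genes tested, 0 (0.0%) passed and 337 (4.07%) had an unadjusted p under 0.05. The arms did not overlap for 0 of the 8 HMG genes, against 29.2% of all genes tested (16.1% higher and 13.2% lower with the SNHG26 guides) and 31.3% of those averaging at least 20 TPM. The median difference over the 8 genes was 0.02, and 0.04 over all genes tested, with single genes from -0.18 (HMGB3) to 0.35 (HMGN4). By day, the medians were -0.26 on day 2 and 0.20 on day 3, against 0 and 0.03 over all genes tested. HMGA1, HMGB1, HMGB3, HMGN2 and HMGN3 were lower with the SNHG26 guides on day 2 and higher on day 3, HMGB2 the reverse. HMGN1 and HMGN4 were higher on both days. Whether the guide difference itself differed between days was tested as a crossed contrast, added after seeing the data. Its fit held no term for arm or day, so differences between arms and between days counted as spread. In that test 0 of the 8 HMG genes passed (smallest limma adjusted p 0.961, unadjusted 0.174), against 8 of 8274 genes (0.0967%), and 0 had an unadjusted p under 0.05, against 3.52%. The spread of 2 libraries per arm is wide, so these p-values do not show that the levels were equal.

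**Figure D3:**
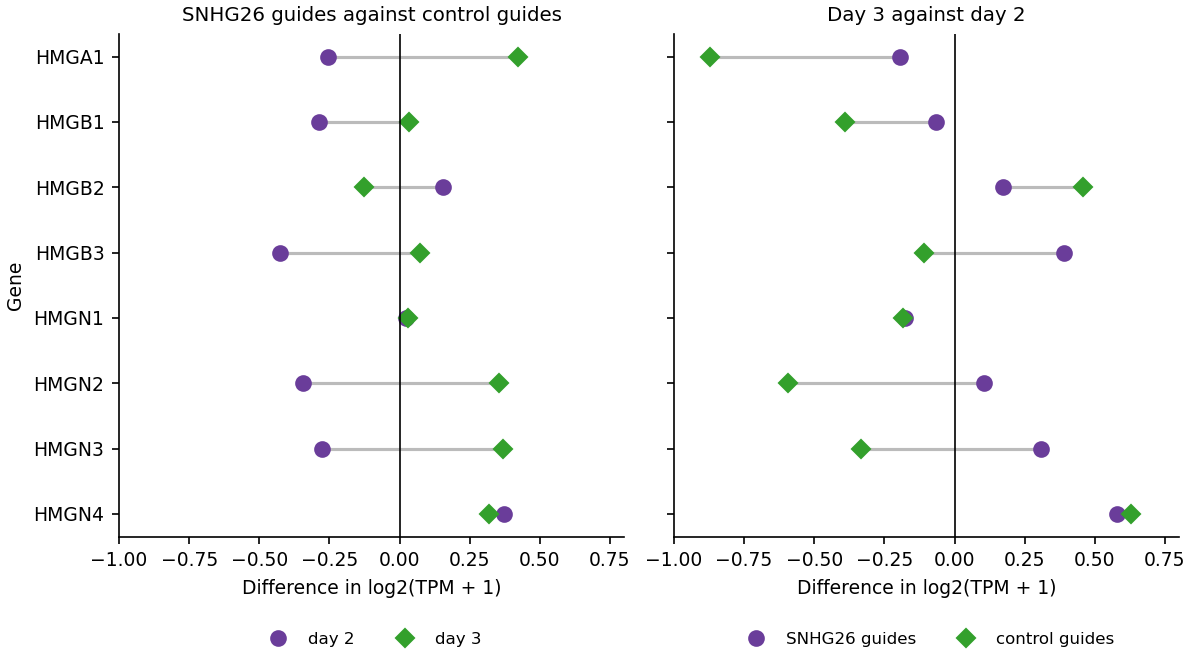
Difference in log2(TPM + 1) for the 8 HMG genes tested, between guide arms on each day (left) and between days in each guide arm (right). Each point is 1 pair of libraries. HMGN1 lies near 0 on both days on the left, and HMGA1, HMGB1, HMGB2, HMGN1 and HMGN4 keep to one side of 0 on the right.

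Between days, 0 of the 8 HMG genes passed, against 3 of 8274 genes (0.0363%), and 0 had an unadjusted p under 0.05, against 547 genes (6.61%). Libraries of the 2 days did not overlap for 5 of the 8. HMGB2 and HMGN4 were higher on day 3, and HMGA1, HMGB1 and HMGN1 lower. Among all genes tested, days did not overlap for 35.5%, and for 40.0% of the 2032 genes averaging at least 20 TPM. The members' share is above that background, but it rests on 8 genes and was not tested. The family thus had no common direction between days. The median over the 8 genes was -0.10, with 0.14 in the SNHG26 arm and -0.26 in the control arm, and 0.01 over all genes tested.

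**Figure D4:**
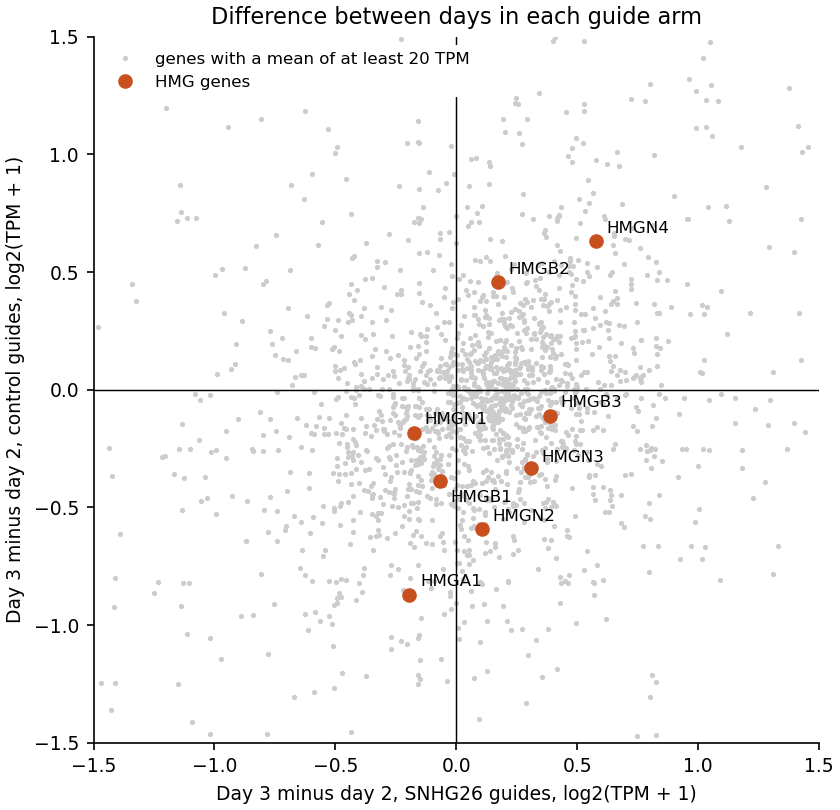
Difference between day 3 and day 2 in the SNHG26 arm (horizontal) and in the control arm (vertical), in log2(TPM + 1). Grey points are 1820 genes averaging 20 TPM or more (212 more lie outside the axes) and orange points are the 8 HMG genes. HMGN4 and HMGB2 lie at the upper right, HMGA1, HMGB1 and HMGN1 at the lower left, and HMGB3, HMGN2 and HMGN3 at the lower right.

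The table lists 10 further genes with HMGA, HMGB or HMGN names. HMGN5, an X-linked member of the nucleosome-binding family, had 19.2 and 25.02 TPM with the SNHG26 guides and 19.9 and 32.4 TPM with control guides, higher on day 3 in both arms (0.52, SE 0.24, limma adjusted p 0.760). The antisense genes HMGA2-AS1 and HMGN3-AS1 were listed at 0 throughout. The other 7 are processed pseudogenes, intronless copies of the mRNAs. HMGB1P5 had the most reads, 0 and 2 with the SNHG26 guides and 4 and 2 with control guides, and the other 6 had at most 2 reads in any library. Because they are short, single reads weigh heavily: 4 reads of HMGB1P5 on 642 bases stood at 50.0 TPM. The annotated HMGB1P5 transcript matches the HMGB1 mRNA at 959 of 967 aligned bases (99.2%). HMGB1P6 matched HMGB1 at 98.6%, HMGN1P38 matched HMGN1 at 98.3% and HMGB3P6 matched HMGB3 at 96.8%. How reads were divided between such copies and their parent genes is not given in the sources used here, so the values of parent and copy are uncertain against each other, by an amount that was not measured. Whether reads from HMGN2 and HMGN4 were separated was not tested. None of the 8 genes of this group that were tested passed in either comparison (smallest limma adjusted p 0.935 for the guides and 0.760 for the days).

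Linker histones, with which HMG proteins compete for nucleosomes, were all without a call in either comparison (7 tested of 8 in the table). Between days, 4 of the 7 were higher on day 3 without overlap and 0 lower, against 17.1% and 18.4% of all genes tested, with a median of 0.46. H1-6, among the 7, had a value only in the day 3 control library (9.28 TPM). The cDNA was primed with oligo-dT, and how fully linker histone mRNAs were captured was not tested. Between the arms 2 of the 7 were lower with the SNHG26 guides without overlap and 0 higher, against 13.2% and 16.1% of all genes tested. Among linker histones averaging at least 5 TPM, H1-1 had the largest difference between the arms, with 9.64 and 17.3 TPM against 21.3 and 26.7 TPM (-0.83, SE 0.39, limma adjusted p 0.935). The reads behind H1-1 were not estimated, and on a short span such values can be a few reads. The 2 linker histones lower with the SNHG26 guides without overlap were H1-1 and H1-3, so that count shares this limit.

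Of 30 S phase and mitosis genes, 28 were tested and 0 passed in either comparison, with medians of 0.08 for the guides and 0.01 for the days. By day, 8 of the 28 were higher on day 3 without overlap and 4 lower, against 17.1% and 18.4% of all genes tested. PLK1, a mitotic kinase, had the largest difference between days, from 53.3 to 84.2 TPM with the SNHG26 guides and from 50.4 to 79.8 TPM with control guides (0.65, SE 0.17, limma adjusted p 0.595). The part of cell cycle stage in the HMGB2 values was not tested. Of the other HMG-box genes, 17 of 30 were tested, and of the SET complex and HMGB partners 12 of 13 in the table. AGER, a receptor of HMGB1, was listed at 0 and 19.6 TPM with the SNHG26 guides and at 12.03 and 10.1 TPM with control guides. The reads behind AGER were not estimated, and on a short span such values can be a few reads. None of the genes tested in either list passed, with medians of -0.03 and 0.10 for the guides and 0.01 and 0.12 for the days. Of the LIN28 and let-7 axis, which acts on HMGA mRNAs, 6 of 13 genes were tested and 0 passed. LIN28A, which blocks let-7 maturation, had 11.95 and 7.60 TPM with the SNHG26 guides and 6.80 and 9.23 TPM with control guides.

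The genes most like the leading member of each family were sought among 1144 genes averaging at least 50 TPM, by Pearson correlation of log2(TPM + 1) over the 4 libraries. UBE2T, UROD and TIMM10B were closest to HMGA1, the last of them with a correlation of 0.9976. For HMGB2 they were NAXE, RPL31 and RPL36P3 (the last 0.9937), and for HMGN1 they were TARS1, TOMM22 and EBP (the last 0.9981). With 4 libraries such values come easily: 88, 43 and 84 genes had a correlation over 0.9 with HMGA1, HMGB2 and HMGN1.

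The RefSeq promoter table (GRCh38.p14) held 11 windows, from 250 bases before to 50 after a start site, for 7 of the 9 genes. HMGA2 and HMGB2 had no entry. CCAAT, a short motif bound by NF-Y, was searched on both strands, as CCAAT or ATTGG. At least 1 window held it in 6 of the 7 genes, and 8 of the 11 windows did, against 34.6% of 35116 windows in the table. HMGN4, the retrocopy, had none in its window. The match nearest the start site is shown in capitals for the 4 genes whose nearest match reads CCAAT on the coding strand, HMGN1 (chr21:39349085-39349113, minus strand), HMGN2 (chr1:26472406-26472434, plus strand), HMGB1 (chr13:30465948-30465976, minus strand) and HMGB3 (chrX:150983268-150983296, plus strand).
HMGN1: ggaggcgggctcCCAATccggttccatcc
HMGN2: accccagctgggCCAATgaacggcggcgg
HMGB1: agttggcggtagCCAATaggagccgcgct
HMGB3: agagcccgctggCCAATcaggcggctctc

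These matches begin 13, 22, 28 and 55 bases before the start site in turn. In HMGN3 the match reads ATTGG, 59 bases before the start site. HMGA1 has ATTGG in both of its windows, 38 bases after one start site and 146 before the other. They describe the sequence only, since factor binding was not measured.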

How the data were processed

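Libraries were made from oligo-dT-primed cDNA by strand switching and 14 cycles of PCR, with no molecular identifiers described, per the labels' protocols, so intervals reflect counting error alone. Gene-level TPM in a single table is what the authors deposited. The submitters' processing notes name minimap2 2.24-r1122 and GRCh38. The counting tool, the annotation and any filter are not given in the sources used here. The unit of 1 read was taken from the most frequent product of TPM and span in each library, with whole reads called within 0.0001 read. Reads per gene are therefore exact only for genes with whole reads.

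Differences are on the log2(TPM + 1) scale, where changes of weakly expressed genes come out too small. Genes averaging at least 1 TPM entered limma 3.58.1 (R 4.3.3, eBayes with a trend, no block), with Benjamini-Hochberg adjustment over all 8274 genes and a threshold of 0.05. Replicate numbers stand for the day of doxycycline. After subtracting the arm means, libraries sharing a day correlated at 0.0464. The script was tested on simulated data. Coding sequences were aligned with Biopython 1.88. The members and lists were chosen with earlier results of these data known. All 9 members are named. Of each list, genes past the threshold are named, or otherwise those with the largest differences among genes averaging at least 5 TPM, and of those only some are printed. Like genes are the 3 with the highest correlation. Alternatives were the replicate block, a prior with no trend, quantile normalization, scaling by median ratios, pseudocounts of 0.1 and 5, filters at 5 and 50 TPM or none, and leaving out each library, where a lone library is assumed to vary like the others.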

Additional observations from a re-analysis of the deposited data

How the results depend on the processing

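The count of HMG genes past the threshold was 0 in both comparisons under each alternative run, including the replicate block (smallest limma adjusted p 0.908 for the guides and 0.813 for the days). Over all settings the limma adjusted p-values of HMG genes ran from 0.728 to 1 for the guides and from 0.491 to 0.998 for the days. The count of all genes changed between guides was 0 throughout. Of genes changed between days there were 3, and 0 under the replicate block, a prior with no trend, quantile normalization, either other pseudocount (0.1 or 5), a filter at 50 TPM or none, and without any 1 library (0 to 0). The cause was not tested.

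Between guides, the median over the HMG genes reversed to -0.043 with quantile normalization and -0.020 with median ratio scaling. With those scalings HMGB2 reversed to -0.034 and -0.026, HMGN1 to -0.051 and -0.014, and HMGN2 to -0.092 and -0.034, and HMGN3 reversed to -0.025 with quantile normalization alone. Each of these gene differences was smaller than its SE. Leaving out 1 library moved the guide median from -0.18 to 0.092 and the day median from -0.19 to 0.053. The guide differences then ran from -0.35 to 0.52 for HMGA1, -0.32 to 0.068 for HMGB1, -0.22 to 0.24 for HMGB2, -0.37 to 0.017 for HMGB3, -0.066 to 0.12 for HMGN1, -0.29 to 0.30 for HMGN2, -0.12 to 0.21 for HMGN3 and 0.031 to 0.66 for HMGN4. The day differences of HMGB3 ran from -0.074 to 0.35, of HMGN3 from -0.20 to 0.17, of HMGA1 from -0.74 to -0.32, of HMGB1 from -0.37 to -0.085 and of HMGN2 from -0.42 to -0.066. HMGN4 stayed above 0 in both comparisons, and the day differences of HMGA1, HMGB1, HMGB2, HMGN1 and HMGN2 kept their sign under each alternative run. Much of this was fixed in advance. The replicate block, the prior with no trend and the filters do not alter a difference. For genes whose days did not overlap, neither another pseudocount nor leaving out 1 library can reverse the day difference. Depth limits HMGN4, with a mean of 42.2 reads per library on its listed span, HMGN2, with an estimated 54.4, and HMGA2, with 1 read in all.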
